A study of Mus musculus with 18 samples.

Results

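The 33 genes described here encode the enzymes and carriers that take fatty acids through mitochondrial beta-oxidation. They were taken as a fixed list of gene symbols, matched through their Ensembl identifiers to 33 of the 49315 identifiers counted in every library, and all 33 passed the filter on low counts. The rule that chose them used no measured value, but the list was drawn up with earlier results of these data known. The study sequenced RNA of whole wild-type C57BL/6 mouse embryonic hearts at 5 stages, named by embryonic day. E9.5 and E14.5 have 3 libraries each, and E10.5, E12.5 and E16.5 have 4 each. The labels name no treatment, and each library was labelled as pooled from males and females, so no stage had a separate control group. The labels do not say how many hearts or litters a library came from. The question was how the level of each of these transcripts changed as the heart grew from a looped tube to a chambered, septated organ.

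In beta-oxidation a fatty acid enters the mitochondrion bound to carnitine, is passed back to coenzyme A, and is shortened by repeated rounds of dehydrogenation, hydration, a further dehydrogenation and thiolysis, each round releasing acetyl-CoA. Carnitine palmitoyltransferase 1 (CPT1) makes the acylcarnitine, is inhibited by malonyl-CoA and is generally regarded as the controlling entry step. The adult heart draws much of its energy from this pathway, while the early embryonic heart is known to rely more on glucose and lactate.

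The series holds no binding or chromatin data, so promoters were read only for motif letters. RefSeq promoters (build GRCm38.p6) were found for 26 of the 33 genes, and the 250 bases before the start site were searched on both strands. The extended response element bound by estrogen-related receptors, TNAAGGTCA, was present in 374 of 32851 promoters of all genes (1.14%) and in 0 of the 26. The shorter nuclear receptor motif AGGTCA, which is also the end of the longer motif, was present in 4607 of 32851 promoters (14%) and in 5 of the 26 (19.2%), those of Cpt1a, Acadvl, Acadm, Cpt1c and Echs1. Of the genes given library by library below, Acadl, Eci1, Ech1, Acot2 and Acad11 held no match and are not shown. The 4 stretches below are of the genes so given that held the shorter motif. They range from Cpt1a, with the largest change, to Cpt1c, which did not pass over the whole span. Each runs 5′ to 3′ on the gene's strand up to its start site (for Cpt1a up to the base before its annotated exon, inside the annotated span of the gene), and the capitals mark the shorter motif, which reads TGACCT where it lies on the opposite strand.
Cpt1a, chr19:3323051-3323284, + strand: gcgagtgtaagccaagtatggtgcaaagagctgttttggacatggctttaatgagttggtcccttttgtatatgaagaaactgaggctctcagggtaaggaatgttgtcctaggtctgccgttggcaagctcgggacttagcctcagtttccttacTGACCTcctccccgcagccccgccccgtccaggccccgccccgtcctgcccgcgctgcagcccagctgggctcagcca
Acadvl, chr11:70015429-70015678, - strand: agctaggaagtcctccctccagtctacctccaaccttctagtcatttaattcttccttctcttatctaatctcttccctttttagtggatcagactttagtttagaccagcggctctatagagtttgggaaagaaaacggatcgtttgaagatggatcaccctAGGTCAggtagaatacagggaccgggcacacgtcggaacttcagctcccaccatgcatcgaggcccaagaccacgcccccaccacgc
Acadm, chr3:153944644-153944893, - strand: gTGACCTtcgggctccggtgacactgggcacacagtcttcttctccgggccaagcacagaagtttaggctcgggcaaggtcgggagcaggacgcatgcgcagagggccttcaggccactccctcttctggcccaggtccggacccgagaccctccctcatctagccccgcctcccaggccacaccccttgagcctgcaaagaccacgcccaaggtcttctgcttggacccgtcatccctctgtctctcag
Cpt1c, chr7:44974852-44975101, - strand: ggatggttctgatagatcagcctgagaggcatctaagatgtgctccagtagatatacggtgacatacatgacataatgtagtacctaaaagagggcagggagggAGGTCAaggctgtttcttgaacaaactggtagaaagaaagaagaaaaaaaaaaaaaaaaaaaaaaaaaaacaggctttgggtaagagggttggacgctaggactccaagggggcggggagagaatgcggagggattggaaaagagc

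The shorter motif of Cpt1a ended 89 bases before the RefSeq start and that of Acadvl ended 82 bases before it. In Acadm it sat at the far edge of the window, ending 244 bases before the start, and in Cpt1c it ended 141 bases before. A match of 6 letters is a description of the window and not a measured binding site. Hadha and Hadhb, which encode the 2 subunits of the trifunctional protein, lie head to head on chromosome 5, and the 85 bases between their annotated ends are shown because a single stretch separates both start regions. They hold neither motif, and 69.4% of the bases are G or C.
Between Hadha and Hadhb, chr5:30155163-30155247, + strand: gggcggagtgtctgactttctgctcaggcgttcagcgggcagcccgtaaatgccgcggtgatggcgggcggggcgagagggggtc

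Gene positions are those of the GENCODE M21 annotation of build GRCm38. Values are CPM, the usual depth-scaled read count, after TMM scaling, a library scaling that allows for a few very abundant transcripts, unless another scale is named. Depth ran from 30744015 to 45646538 counts per library. All 10 heart muscle markers (Tnnt2, Actn2, Myh6 and others) passed the filter, 6 rose and 3 fell between E9.5 and E16.5, and their summed level ran from 20501 to 23172 CPM at E9.5 and from 27897 to 34192 CPM at E16.5. Other cell types moved over the same span. Of 8 fibroblast markers 7 rose, with sums of 265 to 365 CPM at E9.5 and 4358 to 5737 CPM at E16.5. Of 8 macrophage markers 7 rose, with sums of 9.53 to 32.1 and 120.2 to 150.1 CPM at those stages. Of 9 erythroid markers 5 rose and 3 fell, with mean sums of 6558 CPM at E9.5, 35491 at E12.5 and 15356 at E16.5. The erythroid sum ran from 16315 to 49186 CPM within E12.5. Of 7 endothelial markers, Fabp4 among them, 5 rose and 2 fell, and of 6 epicardial markers 3 rose and 1 fell. All marker sums are before TMM scaling. Of 8 liver markers only 4 passed the filter, and their 8-gene sum was 66.5 CPM in E9.5 replicate 2 against 1.84 to 5.96 CPM in the other 17 libraries. The part of these cell types in the results below was not tested, and in whole hearts fewer cells of a type and less RNA per cell cannot be told apart. Transcripts of the mitochondrial genome took 2.20 ± 0.168% of counts at E9.5 and 5.56 ± 0.74% at E16.5 (SD).

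The libraries also fell into 2 sets that the labels do not name. The sum of 8 macrophage-type transcripts (Chil3, Mmp12, Gpnmb and others) was 0.582 to 2.75 CPM in 5 libraries, E9.5 replicates 2 and 3, E10.5 replicates 1 and 2 and E12.5 replicate 4, and 341 to 689 CPM in the other 13. With the set as a term beside the stage, 21.8% of all genes tested differed between the sets (edgeR, adjusted p under 0.05) and 4 of the 33 did. In the 13 libraries Cpt1b was lower by 0.35 and Crat by 0.20 on the log2 scale (values -0.35 and -0.20), and Etfb and Acot13 were higher by 0.44 and 0.27. The part of the sets in the results was not tested, and where calls of the 33 genes were lost within them the values are given below.

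The summed level of the 33 genes was higher at each stage than at the one before, with no test made of the sum. It went from 1961 ± 171 CPM at E9.5 (SD, n = 3) through 2447 ± 82.1 at E10.5 (n = 4), 3301 ± 131 at E12.5 (n = 4) and 3996 ± 117 at E14.5 (n = 3) to 5794 ± 298 at E16.5 (n = 4), and the ranges of the 5 stages did not overlap. As a share of all counts the sum went from 0.195 ± 0.0199% to 0.556 ± 0.0203%, and with the mitochondrial genome left out of the total from 0.199 ± 0.0207% to 0.589 ± 0.0218% (SD).

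Between E9.5 and E16.5, 31 of the 33 genes rose and 0 fell (edgeR quasi-likelihood test, Benjamini-Hochberg adjusted p under 0.05 over 18885 genes), where 32.1% of all genes tested rose and 32.8% fell. The median log2 fold change of the 33 was 1.18, and that of all genes tested was -0.01. Cpt1c and Acad10 were the 2 that did not pass, at -0.15 ± 0.14 and -0.04 ± 0.22 (SE, edgeR adjusted p = 0.352 and 0.873). The changes ran up to 3.29 ± 0.18 for Cpt1a, and all 31 calls passed in each of the 16 alternatives run for this comparison. Within the 13 libraries, 31 rose, against 26.5% of all genes, with a median of 1.02. That fit has 1 library at E9.5, which is assumed to vary like the other stages, so it holds no check of the spread at E9.5.

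**Figure D1:**
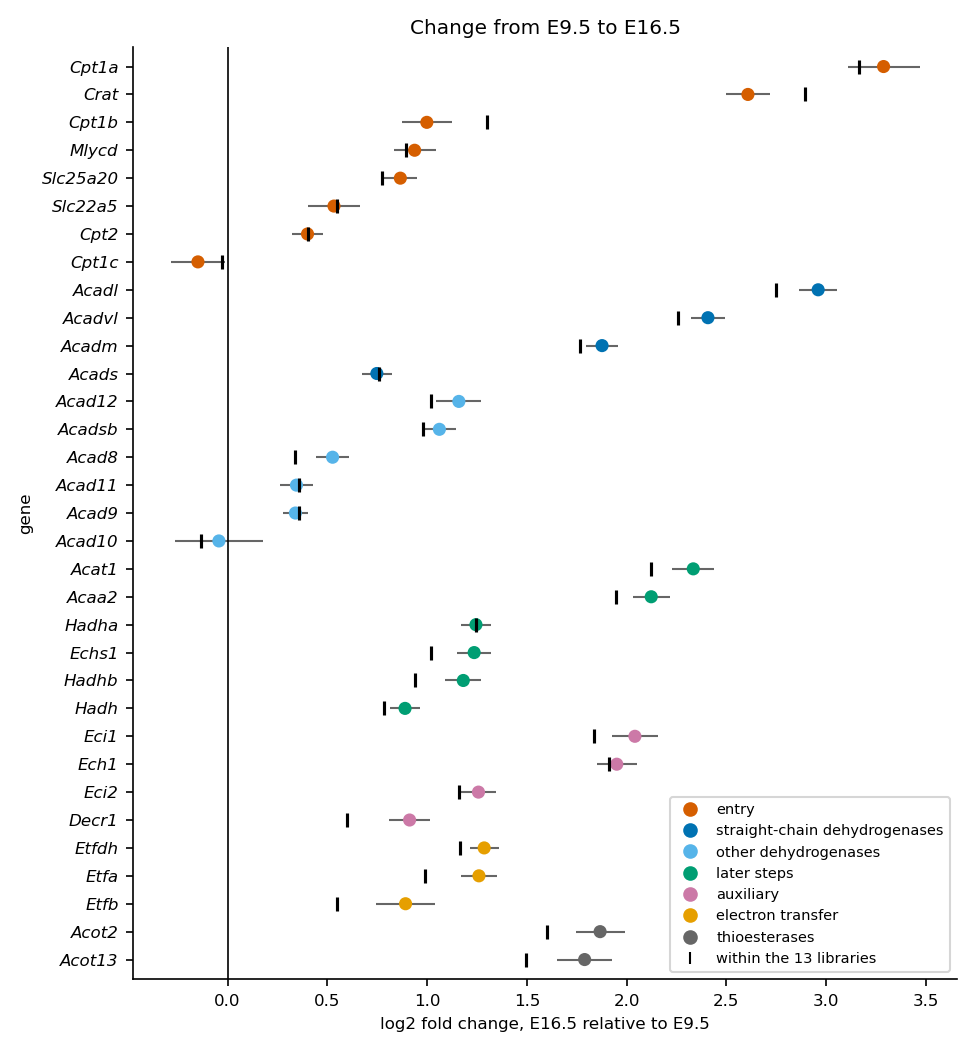
Log2 fold change of each of the 33 genes at E16.5 relative to E9.5 (horizontal axis, points with SE bars), grouped and coloured by role, with the value within the 13 libraries as a black tick. All genes but Cpt1c and Acad10 lie to the right of 0, and Cpt1a lies farthest at 3.29.

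The rise was spread over the stages. From E9.5 to E10.5, 15 genes rose and 0 fell, with a median log2 fold change of 0.26, against 10.6% of all genes higher and 7.62% lower (edgeR). From E10.5 to E12.5, 20 rose and 1 fell, with a median of 0.31, against 20% higher and 18.1% lower. From E12.5 to E14.5, 8 rose and 0 fell, with a median of 0.19, against 6.29% higher and 8.56% lower. From E14.5 to E16.5, 22 rose and 1 fell, with a median of 0.45, against 10.1% higher and 8.74% lower. The change upward was largest at the last step in 18 genes, at E12.5 with E10.5 in 7, at E10.5 with E9.5 in 6 and at E14.5 with E12.5 in 2. The steps are not equally long, the first being the shortest by embryonic day, and no value was divided by the length of its step. Neighbouring steps share the libraries of the stage between them.

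The number that passed at the first step differed between fits. In the separate fits of the 13 and the 5 libraries, the set and the number of libraries changed together. Their parts there cannot be told apart. Within the 13 libraries (1 at E9.5, 2 at E10.5) 4 genes rose, against 4.93% of all genes, and within the 5 (2 at each stage) 24 rose, against 19.4%. With all 18 libraries kept and the set as a term, 21 rose, against 14.1% of all genes. Without that term 15 rose, against 10.6%. Within the 13, Cpt1a (1.59), Crat (0.75), Acadl (0.50) and Acat1 (0.47) passed. The other 11 of the 15 calls were lost there, at 0.46 for Acad12, 0.34 for Acadvl, 0.33 for Acadsb, 0.27 for Hadha, 0.26 for Eci2, 0.19 for Acot2, 0.18 for Etfdh, 0.14 for Acaa2, 0.14 for Eci1, 0.10 for Slc25a20 and 0.05 for Acadm. The log2 fold change was above 0 in 29 of the 33 over all libraries and in 23 within the 13, with medians of 0.26 and 0.17. The values on the other side of 0 in the 13 were those of Hadh, Hadhb, Echs1, Decr1, Etfa and Acad8, none of which passed in either fit. For E12.5 with E10.5, 18 rose within the 13, against 15% of all genes, and 23 within the 5, against 17%, where E12.5 has 1 library and the same assumption holds. Acad8 (0.17), Acad12 (0.31) and the fall of Acad11 (-0.18) lost their calls within the 13. For E14.5 with E12.5, 10 rose within the 13, against 7.3%, and for E16.5 with E14.5, 22 rose, against 12.8%. Across all 5 stages together, 31 of the 33 differed (edgeR F test), against 71.7% of all genes.

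**Figure D2:**
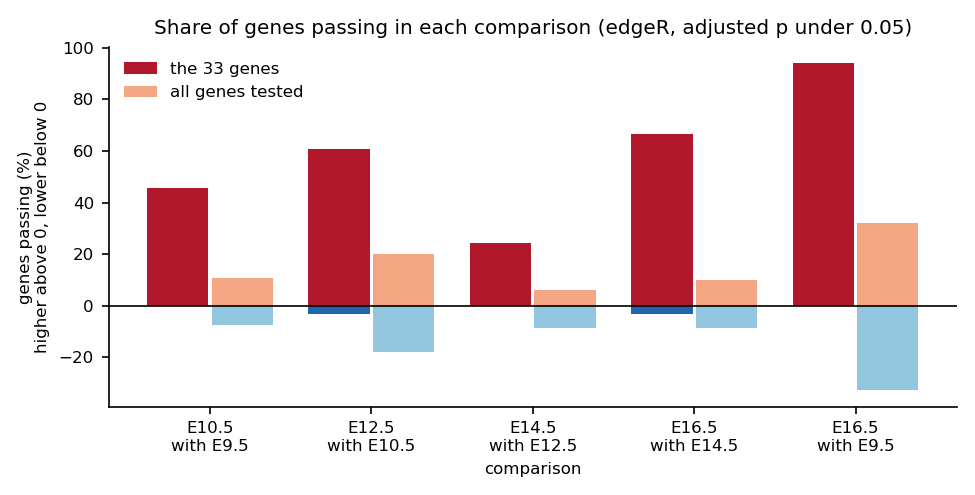
Percent of the 33 genes (dark bars) and of all 18885 genes tested (light bars) that were higher (above 0) or lower (below 0) in each comparison, by edgeR at an adjusted p under 0.05. The largest share of the 33 among the 4 steps was at E16.5 with E14.5, where 22 rose, and the smallest at E14.5 with E12.5, where 8 rose.

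**Figure D3:**
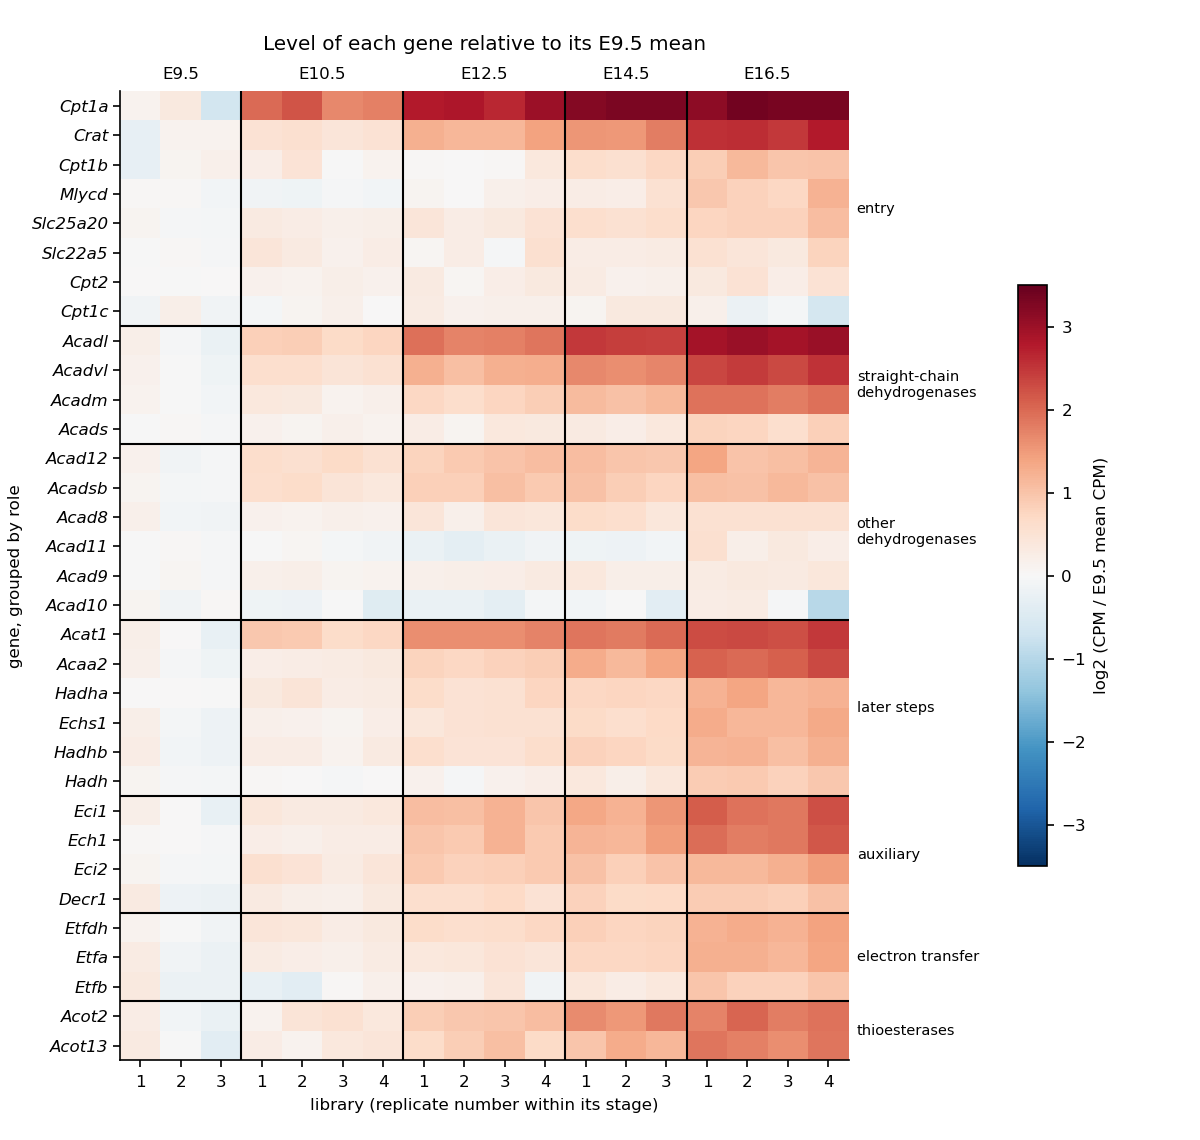
Log2 ratio of each gene's CPM in each of the 18 libraries to its own E9.5 mean, in rows grouped by role and columns grouped by stage. Red deepens from left to right in most rows. Cpt1a is red already at E10.5, and Crat deepens at each stage, with its largest step at E16.5. The rows of Cpt1c, Acad10 and Acad11 stay pale.

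The entry group holds the carnitine carriers, the acyltransferases and the decarboxylase Mlycd. Of its 8 members 7 rose between E9.5 and E16.5, with a median log2 fold change of 0.90. Cpt1a (ENSMUSG00000024900, chr19:3322334-3385733) encodes the liver form of CPT1. Its levels were 9.36, 10.9 and 5.48 CPM at E9.5, 33.7, 39.2, 27.3 and 28.9 at E10.5, 58.8, 60.4, 53.4 and 67.8 at E12.5, 79.4, 84.02 and 83.8 at E14.5 and 74.8, 89.4, 85.3 and 85.8 CPM at E16.5. Each stage lay above the one before without overlap up to E14.5, and E14.5 and E16.5 overlapped. The log2 fold change was 3.29 ± 0.18 over the whole span (SE, edgeR adjusted p = 2.87e-11), 1.91 ± 0.17 at the first step (adjusted p = 8.33e-07), 0.90 ± 0.14 at the second (adjusted p = 9.86e-05), 0.46 ± 0.15 at the third (adjusted p = 0.0535) and 0.02 ± 0.15 at the last (adjusted p = 0.937). Leaving out E9.5 replicate 2, the library with the liver markers, gave 3.49 over the whole span, and leaving out E9.5 replicate 3, the lowest library, gave 3.05. The third step passed in 7 of 16 alternatives, the first in 16 of 17 and the second in 17 of 18, the exception being in both cases the 5 libraries alone (2.17 and 0.90).

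Cpt1b (ENSMUSG00000078937, chr15:89416405-89425863) encodes the muscle form of CPT1. It stood at 31.9, 41.6 and 44.03 CPM at E9.5, 45.9, 54.7, 38.5 and 42.9 at E10.5, 40.1, 39.7, 39.9 and 50.8 at E12.5, 60.5, 58.2 and 64.5 at E14.5 and 70.7, 86.8, 77.04 and 78.4 CPM at E16.5. The libraries of E9.5, E10.5 and E12.5 overlapped, E14.5 lay above all of them and E16.5 above E14.5. Within each of the first 3 stages the libraries of the set of 5 were the highest. Over the whole span Cpt1b rose by 0.998 ± 0.12 on the log2 scale (SE, edgeR adjusted p = 8.91e-07), and by 1.30 within the 13 libraries. It rose at E14.5 with E12.5 (0.52 ± 0.12, adjusted p = 0.00621) and at E16.5 with E14.5 (0.36 ± 0.12, adjusted p = 0.0459), the latter in 9 of 16 alternatives. That last call was lost with the replicate block and on leaving out any of the 3 libraries of E14.5 or replicates 2, 3 or 4 of E16.5, with changes of 0.31 to 0.40.

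Cpt1c (ENSMUSG00000007783, chr7:44959372-44974851) encodes the brain form, which sits in the endoplasmic reticulum and contributes little to fatty acid oxidation. It stood at 11.4, 14.3 and 11.4 CPM at E9.5, 11.8, 13.1, 13.9 and 12.6 at E10.5, 14.9, 13.8, 13.9 and 14.05 at E12.5, 13.3, 15.8 and 15.8 at E14.5 and 13.99, 10.7, 11.8 and 8.08 CPM at E16.5. All 5 stages overlapped, and E16.5 replicate 4 was the lowest of the 18 libraries. Cpt1c fell at the last step by 0.42 ± 0.14 on the log2 scale (SE, edgeR adjusted p = 0.0343), a call that passed in 10 of 16 alternatives. It was lost without E14.5 replicate 2 or 3 or E16.5 replicate 2 or 4, with the replicate block, and with only both stages in the fit, with changes of -0.43 to -0.30. Among the 5 stages it did not pass the edgeR F test (adjusted p = 0.0556).

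Compared per kilobase of exon, the muscle form was the more abundant of both main forms at every stage, but the gap narrowed and then widened. Cpt1b stood at 11.6 ± 1.9 CPM per kilobase at E9.5 and 23.2 ± 1.96 at E16.5, Cpt1a at 1.12 ± 0.364 and 10.97 ± 0.823, and Cpt1c at 2.21 ± 0.302 and 1.99 ± 0.438 (SD). The log2 ratio of Cpt1b to Cpt1a in the 3 libraries of E9.5 was 2.94, 3.11 and 4.17. It was 1.63, 1.66, 1.68 and 1.75 at E10.5, 0.63, 0.57, 0.76 and 0.77 at E12.5, 0.79, 0.65 and 0.80 at E14.5 and 1.10, 1.14, 1.03 and 1.05 at E16.5. Only E12.5 and E14.5 overlapped. Cpt1b thus made up 91.0 ± 3.33% of the sum of both at E9.5 and 76.2 ± 0.635% at E10.5, fewest at E12.5 (61.6 ± 1.58%), then 62.6 ± 1.36% at E14.5 and 67.9 ± 0.717% by E16.5 (SD).

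The 3 stages with 4 libraries were compared in 3 pairs with a two-sided exact permutation test, in which the smallest possible p is 0.0286. The mean log2 ratio fell by 0.997 from E10.5 to E12.5, was higher by 0.40 at E16.5 than at E12.5, and was lower by 0.60 at E16.5 than at E10.5 (difference -0.60), each with an exact p = 0.0286, also after Benjamini-Hochberg adjustment over the 3 pairs. The ratio rests on merged exon lengths, so an unequal use of alternative exons would shift its level. Gm44502, whose annotated exons share 81.4% of those of Cpt1b, is not among the 49315 identifiers counted and so has no level here.

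**Figure D4:**
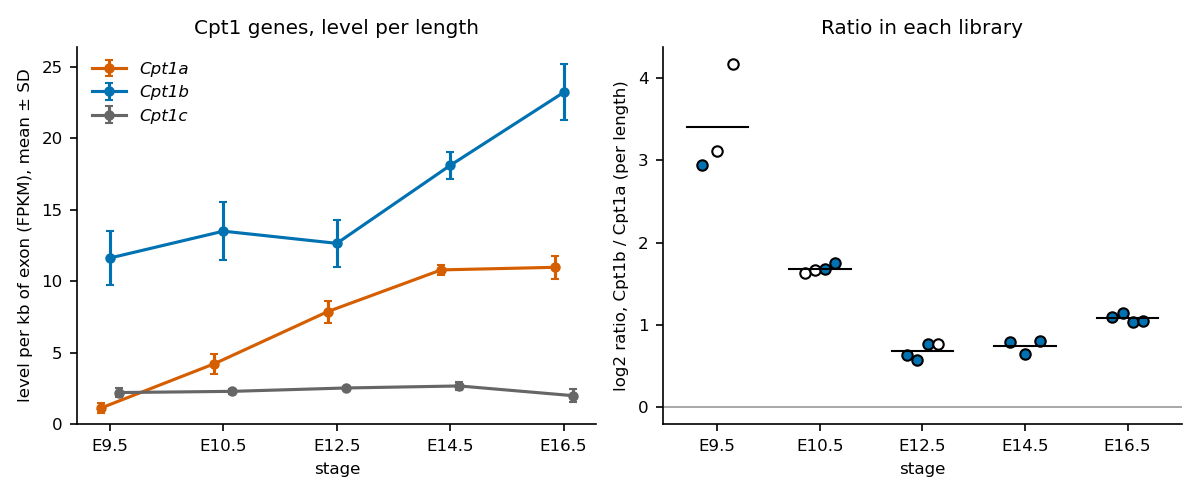
Left, level of Cpt1a, Cpt1b and Cpt1c in CPM per kilobase of exon (labelled FPKM) at each stage, mean ± SD. Right, log2 ratio of Cpt1b to Cpt1a in each library, with open points for the set of 5, filled points for the 13 and lines for the stage means, which go from 3.41 at E9.5 down to 0.68 at E12.5 and up to 1.08 at E16.5.

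Crat (ENSMUSG00000026853, chr2:30400471-30415813), carnitine acetyltransferase, moves acetyl and other short acyl groups between coenzyme A and carnitine. Its levels were 34.8, 46.2 and 46.2 CPM at E9.5, 59.7, 62.4, 56.7 and 60.3 at E10.5, 101, 93.96, 94.4 and 112 at E12.5, 123, 121 and 148 at E14.5 and 250.4, 255, 237 and 290.2 CPM at E16.5. No stage overlapped another, and E16.5 stood apart from E14.5 by the widest step. The change was 2.61 ± 0.11 over the whole span (SE, edgeR adjusted p = 1.93e-13), 2.90 within the 13 libraries, and 0.98 ± 0.10 at the last step (adjusted p = 2.39e-06). Crat rose at all 4 steps, with the call at E14.5 with E12.5 lost without E14.5 replicate 3, the highest library of that stage.

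The other members of the entry group changed less. Slc25a20, the translocase that exchanges acylcarnitine for carnitine across the inner membrane, went from 40.7 ± 2.502 CPM (SD, n = 3) to 74.2 ± 7.77 CPM (SD, n = 4), a change of 0.87. Mlycd, the decarboxylase that removes malonyl-CoA, went from 19.6 ± 1.16 CPM (SD, n = 3) to 37.5 ± 5.701 CPM (SD, n = 4), with 0.94, and of the 4 steps passed only the last (0.58). Slc22a5, the plasma membrane carnitine transporter, went from 10.7 ± 0.313 CPM (SD, n = 3) to 15.5 ± 2.15 CPM (SD, n = 4), with 0.53. Cpt2, which returns the acyl group to coenzyme A inside the mitochondrion, went from 35.1 ± 0.275 CPM (SD, n = 3) to 46.3 ± 4.32 CPM (SD, n = 4), with 0.40, the smallest change of the 7 that rose. Slc22a5 and Cpt2 passed over the whole span (edgeR adjusted p = 0.00129 and 0.000143) and at none of the 4 single steps.

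The 4 straight-chain acyl-CoA dehydrogenases catalyse the first step of each round and differ in the chain length they prefer. All 4 rose over the whole span, and 3 of them, Acadl, Acadvl and Acadm, rose at every step, although within the 13 libraries Acadvl and Acadm did not pass at the first. Acadl (ENSMUSG00000026003, chr1:66830839-66863277), the long-chain enzyme, stood at 101, 85.4 and 74.8 CPM at E9.5, 156, 157, 138 and 148 at E10.5, 333, 291, 294 and 322 at E12.5, 483, 465 and 457 at E14.5 and 654, 704, 654 and 702 CPM at E16.5. No stage overlapped another. The change was 2.96 ± 0.10 (SE, edgeR adjusted p = 4.28e-15), with the largest step, 1.05 ± 0.08, at E12.5 with E10.5, and Acadl kept its call at all 4 steps in every alternative. Acadl was the highest of the 33 per kilobase of exon at E16.5, at 338 ± 14.2 CPM per kilobase, and the third at E9.5, at 43.5 ± 6.68 (SD).

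Acadvl (ENSMUSG00000018574, chr11:70010183-70015411), the very-long-chain enzyme, is bound to the inner membrane. It stood at 52.3, 46.6 and 42.2 CPM at E9.5, 70.5, 71.1, 64.01 and 67.8 at E10.5, 112, 96.9, 111 and 113 at E12.5, 152, 145 and 155 at E14.5 and 239, 255, 234 and 271 CPM at E16.5. No stage overlapped another, and E12.5 replicate 2 was the low library of its stage. The change was 2.41 ± 0.09 (SE, edgeR adjusted p = 1.73e-14), with the largest step at E16.5 with E14.5 (0.73 ± 0.08). The first step was 0.54 ± 0.08, and 0.34 within the 13 libraries, where the call was lost. Exons of Dvl2 on the opposite strand cover 42.9% of those of Acadvl, the strand setting of the counting is not given, and Dvl2 itself stood at 58.9 CPM at E9.5 and 50 CPM at E16.5 before TMM scaling.

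Acadm (ENSMUSG00000062908, chr3:153922357-153944632), the medium-chain enzyme, stood at 119.6, 109 and 102 CPM at E9.5, 142, 139, 121 and 126 at E10.5, 184, 170.2, 185 and 200.3 at E12.5, 239, 224 and 243 at E14.5 and 411, 409.9, 383 and 418 CPM at E16.5. The stages did not overlap, although the highest library of E9.5 and the lowest of E10.5 nearly met. The change was 1.88 ± 0.08 (SE, edgeR adjusted p = 2.01e-13), of which 0.78 ± 0.08 fell to the last step. The call at the first step (0.26 ± 0.08, adjusted p = 0.0237) passed in 11 of 17 alternatives, and within the 13 libraries the change was 0.05. It was lost there, with only both stages in the fit, and without replicate 2 or 3 of E9.5 or replicate 1 or 2 of E10.5. Acads, the short-chain enzyme, changed least of the 4, from 69.4 ± 1.83 CPM (SD, n = 3) to 116 ± 8.67 CPM (SD, n = 4), with 0.75 ± 0.07 over the whole span (adjusted p = 3.55e-08), and passed only at the last step.

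The other acyl-CoA dehydrogenases act mostly outside straight-chain oxidation, and 5 of the 6 rose over the whole span, with a median log2 fold change of 0.44. Acadsb, which acts in isoleucine breakdown, went from 33.1 ± 1.78 CPM (SD, n = 3) to 69.03 ± 2.54 CPM (SD, n = 4), a change of 1.06, and passed at the first 2 steps only. Acad8, which acts in valine breakdown, went from 27.9 ± 3.41 CPM (SD, n = 3) to 40.2 ± 0.173 CPM (SD, n = 4), with 0.53. Acad9, known above all for its part in the assembly of complex I, went from 56.5 ± 2.16 CPM (SD, n = 3) to 71.5 ± 2.32 CPM (SD, n = 4), with 0.34. Acad12 went from 5.196 ± 0.484 CPM (SD, n = 3) to 11.6 ± 1.45 CPM (SD, n = 4), with 1.16. Acad10 stayed at low counts, 3.39 ± 0.276 CPM at E9.5 and 3.28 ± 1.11 CPM at E16.5 (SD), and did not pass in any of the 5 comparisons.

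Acad11 (ENSMUSG00000090150, chr9:104063377-104127725) was the other gene with a fall. It stood at 20.9, 21.6 and 20.6 CPM at E9.5, 20.97, 21.96, 20.2 and 19.3 at E10.5, 17.8, 16.7, 17.9 and 19.4 at E12.5, 18.98, 18.6 and 19.6 at E14.5 and 31.3, 24.5, 26.5 and 24.8 CPM at E16.5. E12.5 and E14.5 held most of the low libraries, and all 4 libraries of E16.5 lay above those of every other stage. From E10.5 to E12.5 Acad11 fell by 0.20 ± 0.08 on the log2 scale (SE, edgeR adjusted p = 0.0486), and the call passed in 3 of 18 alternatives, with replicates 1 to 3 of either stage each ending it when left out. It rose at the last step by 0.49 ± 0.08 (adjusted p = 0.000431), in 16 of 16 alternatives.

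The later steps of each round are hydration, the second dehydrogenation and thiolysis, and all 6 genes of this group rose over the whole span and at the last step. Acat1 (ENSMUSG00000032047, chr9:53580522-53610382), the acetoacetyl-CoA thiolase that also serves ketone body and isoleucine breakdown, stood at 99.5, 86.3 and 71.4 CPM at E9.5, 165, 161, 134 and 141 at E10.5, 263, 265, 266 and 285 at E12.5, 315, 302 and 339 at E14.5 and 415, 427, 413 and 475 CPM at E16.5. No stage overlapped another. The change was 2.33 ± 0.10 (SE, edgeR adjusted p = 3.7e-13), with steps of 0.81 ± 0.10 and 0.84 ± 0.09 up to E12.5. Acaa2 (ENSMUSG00000036880, chr18:74779197-74806208), the mitochondrial 3-ketoacyl-CoA thiolase, stood at 107, 91.7 and 84.3 CPM at E9.5, 112, 112, 116 and 119 at E10.5, 162, 156, 166 and 171 at E12.5, 230.4, 205 and 244 at E14.5 and 398, 375, 398 and 472 CPM at E16.5. The stages did not overlap, and E16.5 replicate 4 was the highest library. The change was 2.12 ± 0.09 (adjusted p = 2.96e-13), with the largest step at E16.5 with E14.5 (0.86 ± 0.09), and the call at the first step passed in 10 of 17 alternatives, being lost within the 13 libraries (0.14, against 0.28), with only both stages in the fit, and without replicate 2 or 3 of E9.5 or replicate 2, 3 or 4 of E10.5.

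Hadha and Hadhb, the trifunctional protein's α and β subunits, both rose over the whole span. Hadha went from 234 ± 1.61 CPM (SD, n = 3) to 555 ± 38.8 CPM (SD, n = 4), a change of 1.24 ± 0.08 (SE), and Hadhb went from 136 ± 22.2 CPM (SD, n = 3) to 309 ± 17.6 CPM (SD, n = 4), a change of 1.18 ± 0.09. Both passed at E12.5 with E10.5 (0.28 and 0.31) and at E16.5 with E14.5 (0.51 and 0.44), and neither passed at E14.5 with E12.5. Hadha alone of the pair passed at the first step (0.34, against 0.24 for Hadhb), and the difference between them was not tested. Echs1, the short-chain hydratase, went from 80.2 ± 11.8 CPM (SD, n = 3) to 189 ± 12.3 CPM (SD, n = 4), with 1.24. Hadh, the dehydrogenase for shorter hydroxyacyl-CoA, went from 149 ± 10.2 CPM (SD, n = 3) to 275 ± 12.7 CPM (SD, n = 4), with 0.89, and passed at the last step only (0.57).

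The auxiliary enzymes prepare unsaturated fatty acids for the main spiral, and all 4 rose over the whole span and at E12.5 with E10.5. Eci1 (ENSMUSG00000024132, chr17:24426641-24439348), an enoyl-CoA isomerase, stood at 46.3, 40.2 and 33.7 CPM at E9.5, 52.5, 50.1, 49.8 and 51.7 at E10.5, 85.3, 83.3, 93.9 and 78.3 at E12.5, 102, 92.6 and 116 at E14.5 and 173, 151, 144 and 192 CPM at E16.5. E12.5 and E14.5 overlapped, and the other neighbouring stages did not. The change was 2.04 ± 0.12 (SE, edgeR adjusted p = 1.01e-11), in steps of 0.74 ± 0.10 at E12.5 with E10.5 and 0.67 ± 0.11 at the last. The call at the first step passed in 9 of 17 alternatives. It was lost within the 13 libraries (0.14, against 0.35), with the replicate block, with only both stages in the fit, and without replicate 2 or 3 of E9.5 or replicate 1, 2 or 4 of E10.5.

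Ech1 (ENSMUSG00000053898, chr7:28825217-28832247), a dienoyl-CoA isomerase found in mitochondria and peroxisomes, stood at 37.1, 36.1 and 34.7 CPM at E9.5, 42.4, 40.5, 43.04 and 43.4 at E10.5, 70.2, 68.2, 83.2 and 67.5 at E12.5, 82.6, 80.3 and 98.3 at E14.5 and 139.6, 125, 128 and 164 CPM at E16.5. It was similar to Eci1 in that E12.5 and E14.5 overlapped, with E12.5 replicate 3 and E14.5 replicate 3 the high libraries of their stages in both genes. The change was 1.95 ± 0.10 (SE, edgeR adjusted p = 2.89e-12), with 0.77 ± 0.09 at E12.5 with E10.5 and 0.68 ± 0.10 at the last step. Eci2, a second enoyl-CoA isomerase, went from 45.95 ± 3.02 CPM (SD, n = 3) to 109.9 ± 12.4 CPM (SD, n = 4), with 1.26, and Decr1, the dienoyl-CoA reductase, went from 51.5 ± 10.97 CPM (SD, n = 3) to 96.95 ± 6.18 CPM (SD, n = 4), with 0.91 (0.60 within the 13 libraries).

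The electron transfer flavoprotein takes electrons from the dehydrogenases to the respiratory chain, and its 3 genes rose over the whole span and at the last step. Etfa, the α subunit, went from 159 ± 29.3 CPM (SD, n = 3) to 381 ± 23.6 CPM (SD, n = 4), a change of 1.26 ± 0.09 (SE). Etfb, the β subunit, went from 46.99 ± 11.1 CPM (SD, n = 3) to 87.2 ± 5.96 CPM (SD, n = 4), with 0.89 ± 0.15, or 0.55 within the 13 libraries. In the 5 libraries Etfb was low, at 36.4 to 43.4 CPM up to E12.5, against 48.7 to 62.5 CPM in the 6 libraries of the other set at those stages. Exons of Gm45233 on the same strand cover 53% of those of Etfb, so reads may be discarded there and its level is uncertain. Etfdh, the oxidoreductase that passes the electrons to ubiquinone, went from 92.8 ± 7.75 CPM (SD, n = 3) to 226 ± 13.5 CPM (SD, n = 4), with 1.29 ± 0.07, and passed at 3 of the 4 steps.

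The 2 thioesterases, which release free fatty acids from coenzyme A, rose by similar amounts. Acot2 (ENSMUSG00000021226, chr12:83987861-83993873), a mitochondrial enzyme, stood at 16.97, 13.2 and 12.1 CPM at E9.5, 15.4, 19.1, 20.4 and 18.2 at E10.5, 25.7, 26.9, 27.8 and 29.99 at E12.5, 44.3, 40.5 and 50.7 at E14.5 and 47.1, 57.5, 48.4 and 52.4 CPM at E16.5. E9.5 overlapped E10.5 and E14.5 overlapped E16.5, while E12.5 lay above both early stages and below both late ones. The change was 1.87 ± 0.12 (SE, edgeR adjusted p = 8.7e-11), with the largest step at E14.5 with E12.5 (0.71 ± 0.11, adjusted p = 0.000248). The call at the first step passed in 9 of 17 alternatives. It was lost within the 13 libraries (0.19, against 0.38), with the replicate block, with only both stages in the fit, and without replicate 2 or 3 of E9.5 or replicate 2, 3 or 4 of E10.5. Acot2 has a closely similar neighbour, Acot1, so its reads may be split or discarded and its level is uncertain. Acot13 went from 25.98 ± 5.99 CPM (SD, n = 3) to 89.9 ± 6.95 CPM (SD, n = 4), with 1.79 ± 0.14.

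**Figure D5:**
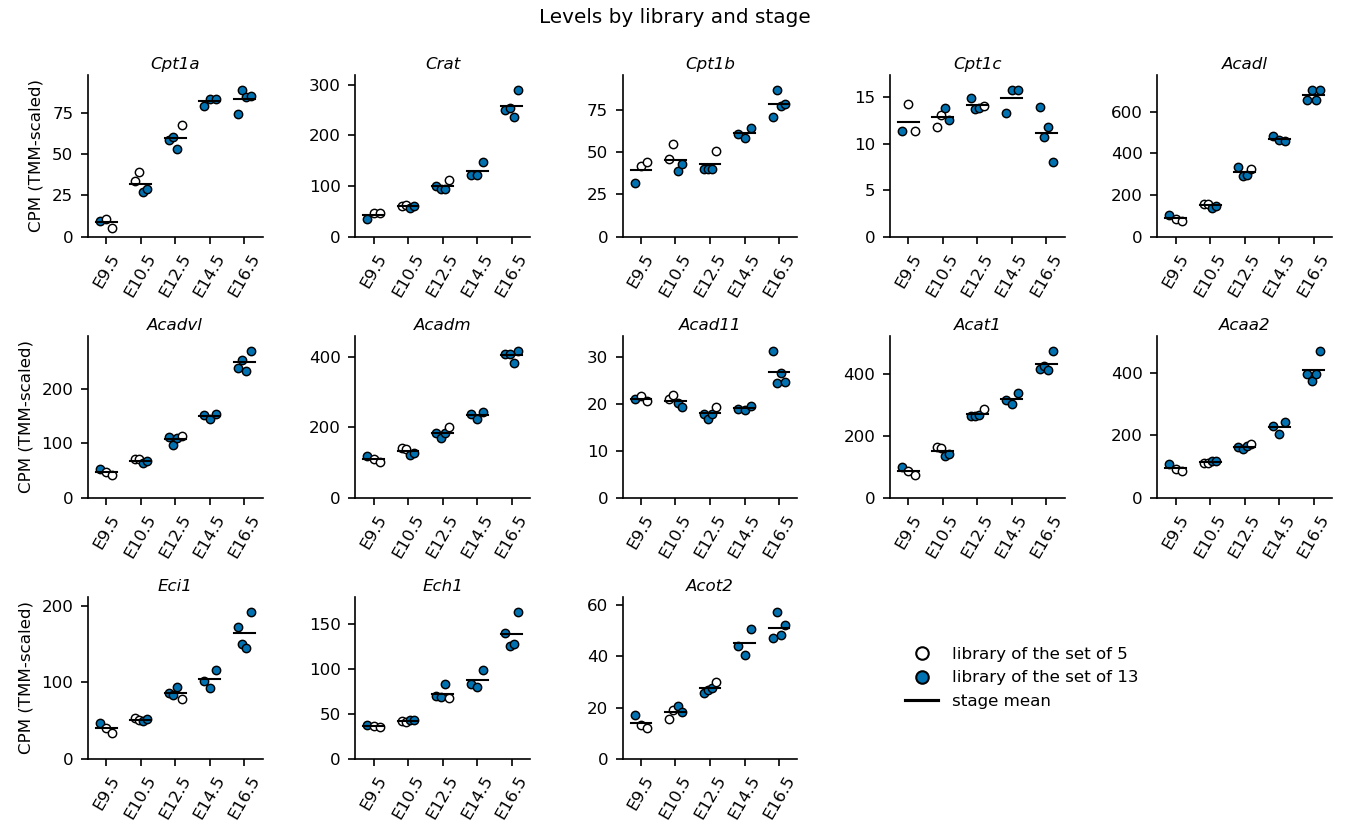
CPM (TMM-scaled) of the 13 genes described library by library, by stage, with open points for the set of 5 libraries, filled points for the 13 and lines for stage means. Acadl, Acadvl, Acadm, Crat, Acat1 and Acaa2 climb at each stage, and Cpt1a levels off after E14.5 near 83.8 CPM. Cpt1c runs from 8.08 to 15.8 CPM, and Acad11 is highest at E16.5.

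The order of levels per kilobase of exon changed little at its ends. These lengths are merged over all annotated exons, so an unequal use of alternative exons would shift the ranks. Hadha, with 8730 merged exon bases, stood at 555 CPM at E16.5 but ranked 10 per kilobase. At E9.5 the 3 highest were Etfa (86.7 ± 15.96 CPM per kilobase), Acaa2 (62.2 ± 7.55) and Acadl (43.5 ± 6.68), and at E16.5 Acadl (338 ± 14.2), Acaa2 (271 ± 27.7) and Etfa (208 ± 12.9) (SD). The 3 differed from each other by more than their SDs at E16.5, whereas Acot13, Acat1 and Acadm, the next 3, stood at 121 ± 9.34, 115 ± 7.71 and 104 ± 3.92, with Acot13 and Acat1 within their SDs. Acad10, Acad12, Cpt1c and Acad11 made up the lowest 4 at E16.5, at 0.541 ± 0.182, 1.78 ± 0.222, 1.99 ± 0.438 and 2.73 ± 0.321 CPM per kilobase. At E9.5 Cpt1a was also in that range, at 1.12 ± 0.364, and 2 genes ranked lower.

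Genes upstream of the pathway were examined as a list of 15 for fatty acid uptake and activation, of which 11 rose and 1 fell between E9.5 and E16.5, with a median log2 fold change of 1.25 (edgeR; 32.1% of all genes rose and 32.8% fell). Gpihbp1, which anchors lipoprotein lipase on capillary endothelium, went from 0.0961 ± 0.0343 to 26.9 ± 3.68 CPM (8.08 ± 0.30, adjusted p = 3.2e-14), where the E9.5 mean is near the level that 3 counts give in those libraries (0.0910 to 0.0969 CPM), so the fitted fold depends on the prior count. Fabp4, a fatty acid binding protein of endothelial and fat cells, went from 0.958 ± 1.24 to 178 ± 15.7 CPM, and Cd36, a fatty acid transporter, from 39.7 ± 23.2 to 303 ± 8.56 CPM (7.49 ± 0.71 and 2.93 ± 0.34). Acsl4, a long-chain acyl-CoA synthetase, alone fell, from 77.5 ± 3.6 to 37.3 ± 2.39 CPM (-1.06 ± 0.09). At the first step 0 of the 15 rose and 1 fell, where 10.6% of all genes rose and 7.62% fell. From E10.5 to E12.5 9 rose and 2 fell, with a median of 0.52, where 20% rose and 18.1% fell.

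Of 16 regulators, 13 rose and 3 fell over the whole span, with a median of 1.03, against 32.1% and 32.8% of all genes. At E10.5 with E9.5 3 of them rose and 0 fell, against 10.6% and 7.62% of all genes. At E12.5 with E10.5 8 rose and 3 fell, against 20% and 18.1%. At E14.5 with E12.5 8 rose and 0 fell, against 6.29% and 8.56%. At E16.5 with E14.5 6 rose and 2 fell, against 10.1% and 8.74%. Ppara, the nuclear receptor that activates fatty acid oxidation genes, went from 0.519 ± 0.267 to 17.1 ± 2.01 CPM (5.04 ± 0.34, edgeR adjusted p = 1.84e-10). Perm1, a muscle co-regulator of oxidative genes, went from 2.41 ± 0.275 to 42.03 ± 3.07 CPM (4.12 ± 0.14), and Klf15, a transcription factor of lipid use in heart, from 6.58 ± 0.856 to 32.97 ± 4.97 CPM (2.33 ± 0.17). The 3 that fell, named here after their values were seen, were Acaca, Esrrg and Prkaa1. Acaca, an acetyl-CoA carboxylase that makes malonyl-CoA, went from 88.5 ± 22.8 to 40.3 ± 4.203 CPM. Its relative Acacb rose from 49.6 ± 9.02 to 129 ± 10.9 CPM. Esrrg, an estrogen-related receptor, went from 75.3 ± 8.17 to 48.3 ± 4.28 CPM. Its relative Esrra rose from 66.4 to 154 CPM before TMM scaling. Prkaa1, a catalytic subunit of AMP-activated kinase, went from 60.6 ± 1.67 to 40.02 ± 2.02 CPM. Its relative Prkaa2 rose from 146 ± 13 to 224 ± 17.3 CPM.

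In 3 related routes of acyl-CoA breakdown the counts over the whole span stand beside 32.1% of all genes that rose and 32.8% that fell. Of 15 peroxisomal beta-oxidation genes tested, 12 rose and 1 fell with a median of 0.52, and Ech1, which the list shares with the 33, had the largest rise. Acox3, an acyl-CoA oxidase, went from 12.3 ± 1.59 to 23.1 ± 3.7 CPM, and Abcd2, a peroxisomal transporter, fell (from 9.42 ± 0.0771 to 2.08 ± 0.203 CPM). Of 7 ketone body genes 4 rose and 1 fell with a median of 1.11, with the shared Acat1 highest. Oxct1, which activates acetoacetate, went from 146 ± 30.5 to 417 ± 14.8 CPM, and Slc16a1, a monocarboxylate transporter, fell (from 183 ± 13.4 to 158 ± 11.3 CPM). Of 16 genes of branched-chain amino acid breakdown 13 rose and 1 fell with a median of 0.85. At the last step 12 of these 16 rose, against 10.1% of all genes. Aldh6a1 went from 25.1 ± 1.39 to 99.8 ± 3.599 CPM and Pccb from 55.8 ± 9.78 to 155 ± 7.15 CPM, both in the valine and propionate branch, and Bcat1, the cytosolic aminotransferase, fell from 74.1 ± 7.71 to 6.34 ± 0.854 CPM (-3.55 ± 0.11, edgeR adjusted p = 4.17e-15).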

How the data were processed

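RNA was extracted from dissected embryonic hearts with a micro-scale column kit and sequenced on an Illumina platform, per the labels' protocols. The deposited values are whole-number counts of reads per Ensembl gene. Per the submitters' processing notes the authors used Trimmomatic 0.36, STAR 2.5.2b and featureCounts of Subread 1.5.2 on GRCm38 (mm10). Strandedness and annotation version are not given in those notes or the labels, so reads of overlapping genes on opposite strands cannot be told apart. Every counted column belonged to a labelled sample, and replicate pairs of a stage differed by 6.06 to 79.8 times the chi-square expected per degree of freedom, so none was a library deposited again.

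Symbols came from a reference list of gene names by Ensembl identifier (48970 of 49315 identifiers had one). Exon lengths and positions came from the GENCODE M21 annotation. Genes were filtered by edgeR's filterByExpr (18885 kept), scaled with TMM and tested over all 18 libraries with stage as the only term by edgeR 4.0.16 (R 4.3.3, limma 3.58.1), using the quasi-likelihood test with Benjamini-Hochberg adjustment over all genes tested. The Cpt1b to Cpt1a ratio used a prior count of 2 and merged exon lengths and was tested with scipy 1.17.1. On counts simulated for E16.5 with E9.5, the script was tested before use. Alternatives were DESeq2 1.42.0, its size factors in edgeR, other filters, the library set as a term or as separate fits, a replicate block, fits without mitochondrial and globin genes, and each replicate left out.

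The genes and lists were chosen with earlier results of these data known. Values in every library are given for the 3 Cpt1 genes, the 10 called genes with the largest change at E16.5 with E9.5 and every gene that fell. From each other list up to 3 called genes with the largest change and at least 10 CPM in the higher stage are named. Other list genes that fell, and Acacb, Esrra and Prkaa2, were named after their values were seen. Of the genes this rule names, 2 are not reported here. Nothing in the labels ties replicates to separate litters, and p-values therefore reflect only how far these libraries differ, which may be technical. Protein sequences and the promoter of Acaa2 were not used here.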

Additional observations from a re-analysis of the deposited data

Results flagged for a closer look

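In the groups of 4 libraries, 99 sets of values were searched for a library far from the other 3 (Dixon's criterion at 95%, which chance meets in about 1 of 20), and 4 were found, all at E12.5. Cpt1b was high in E12.5 replicate 4 (50.8 CPM, against 39.7 to 40.1 in the others) and Acat1 was high in the same library (285 CPM, against 263 to 266). E12.5 replicate 4 is the only library of that stage in the set of 5. With the set as a term over all 18 libraries, Cpt1b differed between the sets (log2 difference of the 13 from the 5 -0.35, edgeR adjusted p = 0.000447). Acat1 did not pass there (-0.04, edgeR adjusted p = 0.761). Acadvl was low in E12.5 replicate 2 (96.9 CPM, against 111 to 113), and Ech1 was high in E12.5 replicate 3 (83.2 CPM, against 67.5 to 70.2).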

How the results depend on the processing

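Of the calls at the adjusted threshold, 31 of 31 passed in every alternative for E16.5 with E9.5, 18 of 23 for E16.5 with E14.5, 6 of 8 for E14.5 with E12.5, 17 of 21 for E12.5 with E10.5 and 3 of 15 for E10.5 with E9.5 (Acadl, Crat and Acat1). No called value changed sign in these alternatives, while some that did not pass did, as given above for E10.5 with E9.5. For E10.5 with E9.5 the number passing was 4 within the 13 libraries and 24 within the 5, which have fewer libraries, with medians of 0.17 and 0.40. For E14.5 with E12.5 it was 14 with a filter of 10 CPM in 3 libraries, and the cause was not tested. With each replicate left out the numbers passing ran from 10 to 21, 19 to 23, 6 to 10 and 18 to 23 at the 4 steps in order, stayed at 31 for E16.5 with E9.5, and ran from 30 to 32 among the 5 stages. The Cpt1b to Cpt1a differences then ran from -1.02 to -0.96, 0.36 to 0.43 and -0.62 to -0.57, where the exact p cannot go below 0.0571. Replicate numbers are shared across stages, but same-numbered libraries did not deviate together (r from -0.64 to 0.50 over 33 pairs, and 3 of 18 libraries correlated best with their own number). With the replicate block 13, 21, 9 and 21 genes passed at the 4 steps and 31 over the whole span, against 15, 21, 8, 23 and 31. Over all genes, calls for E10.5 with E9.5 numbered 3446, against 1215 within the 13 libraries, 6460 within the 5 and 2260 without E9.5 replicate 3. For E16.5 with E14.5 they numbered 3562, against 2058 without E14.5 replicate 1 and 2225 without replicate 2, and for E14.5 with E12.5 2803, against 1771 without E14.5 replicate 3.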
